A study of Mus musculus with 8 samples.

Results

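The genes described here are those that build ubiquinone (coenzyme Q) and hand it to the respiratory chain. The members were the targets of the deposited table whose gene symbol was Pdss1, Pdss2, Coq2, Coq3, Coq4, Coq5, Coq6, Coq7, Coq9 or Coq10a. All 10 were in the table of 23930 targets, and all 10 averaged 1 RPM or more (reads scaled to a library total of 1000000), as did the 11004 targets that entered the test. RNA of the tibialis anterior, which lifts the foot and consists mainly of fast fibres, was read in 4 KO and 4 WT libraries with an Ion AmpliSeq panel, which reads a short amplicon of each gene. KO mice carried an inducible Cre under the skeletal muscle actin promoter (HSA-Cre) and a loxP-flanked Sdhc, which encodes a membrane anchor of succinate dehydrogenase (complex II). WT mice were littermates with HSA-Cre and no loxP sites. Tamoxifen was given to both groups at an age of 12 weeks, and tissue was collected 3 weeks after induction. The labels write the background as C57BL/6 for the WT and with other numbers after the slash for the KO samples, while the growth protocol gives C57/B6 for the colony. HSA-Cre acts in muscle fibres, so the RNA of other cells in the tissue comes from cells that keep Sdhc.

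Ubiquinone is a ring with a long isoprenoid tail that moves within the inner mitochondrial membrane. Succinate dehydrogenase, complex I and several other dehydrogenases pass electrons to it, and complex III takes them from it. The tail is built from isoprenoid units of the mevalonate pathway and joined to a ring derived from tyrosine. The ring is then decarboxylated, hydroxylated and methylated by enzymes that assemble as a complex on the matrix side of the inner membrane. The comparison asks whether the transcripts of this pathway differ in muscle where a subunit gene of an enzyme feeding electrons into ubiquinone was targeted. These data hold RNA levels only, not the protein or activity of that enzyme.

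Sdhc, the targeted gene, stood at 16.9, 46.5, 18.7 and 54.3 RPM in KO1 to KO4, against 737, 853, 848 and 748 RPM in WT1 to WT4. The groups were far apart and the libraries went with their labels (exact two-sided permutation test, p = 0.0286, the smallest that 4 against 4 libraries allow). The libraries held 5983175 to 9119006 reads. Fast fibre markers were abundant in every library, led by Tnnt3, the fast troponin T, at 30439 to 51450 RPM in KO and 31002 to 52234 RPM in WT. WT1 and WT4 stood apart in bone and osteoclast markers: over the 8 of 10 listed genes in the table, the summed level was 135 to 364 RPM in KO, 3748 RPM in WT1, 6279 RPM in WT4, 913 RPM in WT2 and 388 RPM in WT3. Col1a1, a collagen of bone, tendon and skin, made up most of these sums. Among the defining markers of this list, Dmp1 was at 0 in 3 KO libraries, Sp7 in 2 KO libraries and 1 WT library, and Ctsk in 1 KO library. Acp5 averaged 2.16 RPM in KO and 120 RPM in WT, Mmp9 1.44 and 80.5 RPM, and Ibsp 2.38 and 64.3 RPM. Phex went the other way, at 1.73 RPM in KO and 0.85 RPM in WT. Macrophage markers summed to 26.6 to 32.4 RPM in KO and 41.7 to 198 RPM in WT, fibroblast markers to 379 to 749.8 RPM in KO and 888 to 1389 RPM in WT, and endothelial markers to 330.3 to 402 RPM in KO and 371 to 423 RPM in WT. Adipocyte markers summed to 178 to 222 RPM in KO and 222 to 284 RPM in WT. The main counts and medians below are also given without WT1 and WT4, and the part of these other cells in them was not tested. In bulk tissue a lower level can come from fewer cells of a type or from less RNA per cell, and these cannot be told apart.

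The 10 genes lie on 7 chromosomes, by symbol in the GENCODE vM21 annotation of GRCm38. For the deposited values, the sources used here name no build. The upstream sequence is shown for Pdss2 and Coq7, whose levels varied together over the 8 libraries (Pearson r = 0.74 on log2(RPM + 1), a description over libraries that share the group difference and the scaling). This pair was not the closest: Coq7 had r of 0.91 with Coq5, 0.86 with Coq2 and 0.84 with Coq10a. These windows of 250 bases end just before the RefSeq start site (GRCm38.p6) and hold no annotated exon, and the capitals mark GGGCGG on either strand, the core letters bound by SP1. The Pdss2 window is chr10:43221236-43221485 on the plus strand and the Coq7 window is chr7:118533357-118533606 on the minus strand.
Pdss2: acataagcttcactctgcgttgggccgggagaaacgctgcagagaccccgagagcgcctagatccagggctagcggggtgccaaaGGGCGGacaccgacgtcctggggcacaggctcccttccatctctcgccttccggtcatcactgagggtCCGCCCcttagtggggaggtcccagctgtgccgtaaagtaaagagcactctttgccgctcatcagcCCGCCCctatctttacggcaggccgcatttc
Coq7: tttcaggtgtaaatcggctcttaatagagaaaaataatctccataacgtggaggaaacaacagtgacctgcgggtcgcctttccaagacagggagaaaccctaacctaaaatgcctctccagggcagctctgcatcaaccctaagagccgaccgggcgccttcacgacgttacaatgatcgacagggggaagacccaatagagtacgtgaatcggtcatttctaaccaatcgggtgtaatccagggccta
Pdss2 held the letters 3 times and Coq7 0 times in these windows. Whether the letters bear on the levels of Pdss2 and Coq7 was not tested. RefSeq entries were found for 9 of the 10 genes, with 11 promoters in all, of which 4 held GGGCGG, against 32.7% of all 32851 promoters in the table. The letters of oestrogen-related receptors (TCAAGGTCA) and of GABPA (CCGGAAGT), searched on both strands, were in 0 of the 11, and in 0.387% and 2.88% of all promoters. Motifs of 10 letters for NRF1 and YY1 were also in 0 of the 11, and in 3.74% and 0.301% of all promoters. These matches are descriptions of the letters only.

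None of the ubiquinone synthesis genes passed the test, and in the RPM values every gene had KO and WT libraries that overlapped. In limma on log2(RPM + 1) with Benjamini-Hochberg (BH) adjustment over all targets, 0 of 10 passed an adjusted p of 0.05 (0.0273% of all targets did), and 0 had an unadjusted p under 0.05 (9.22% of all targets did). Most of that 9.22% was lower in KO, at 8.56% of all targets, with 0.663% higher. The smallest adjusted p was 0.612, for Coq2. On the RPM scale 0 of 10 had groups that did not overlap, where 5.1% of all targets had such groups. Of all targets, 0.536% had them with KO higher and 4.56% with KO lower. With libraries scaled by median ratios instead of total reads, the groups of Coq2 and Coq5 no longer overlapped. The share of all targets on that scale was not counted. Of the 10 genes, 8 were higher on average in KO, with log2 fold changes that spanned -0.16 for Coq3 and 0.27 for Coq2 and a median of 0.16. Pdss1, at 0.07, was at -0.01 when libraries were scaled to fast fibre markers. Over all tested targets the median was -0.05, and 40.8% were above 0.

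**Figure D1:**
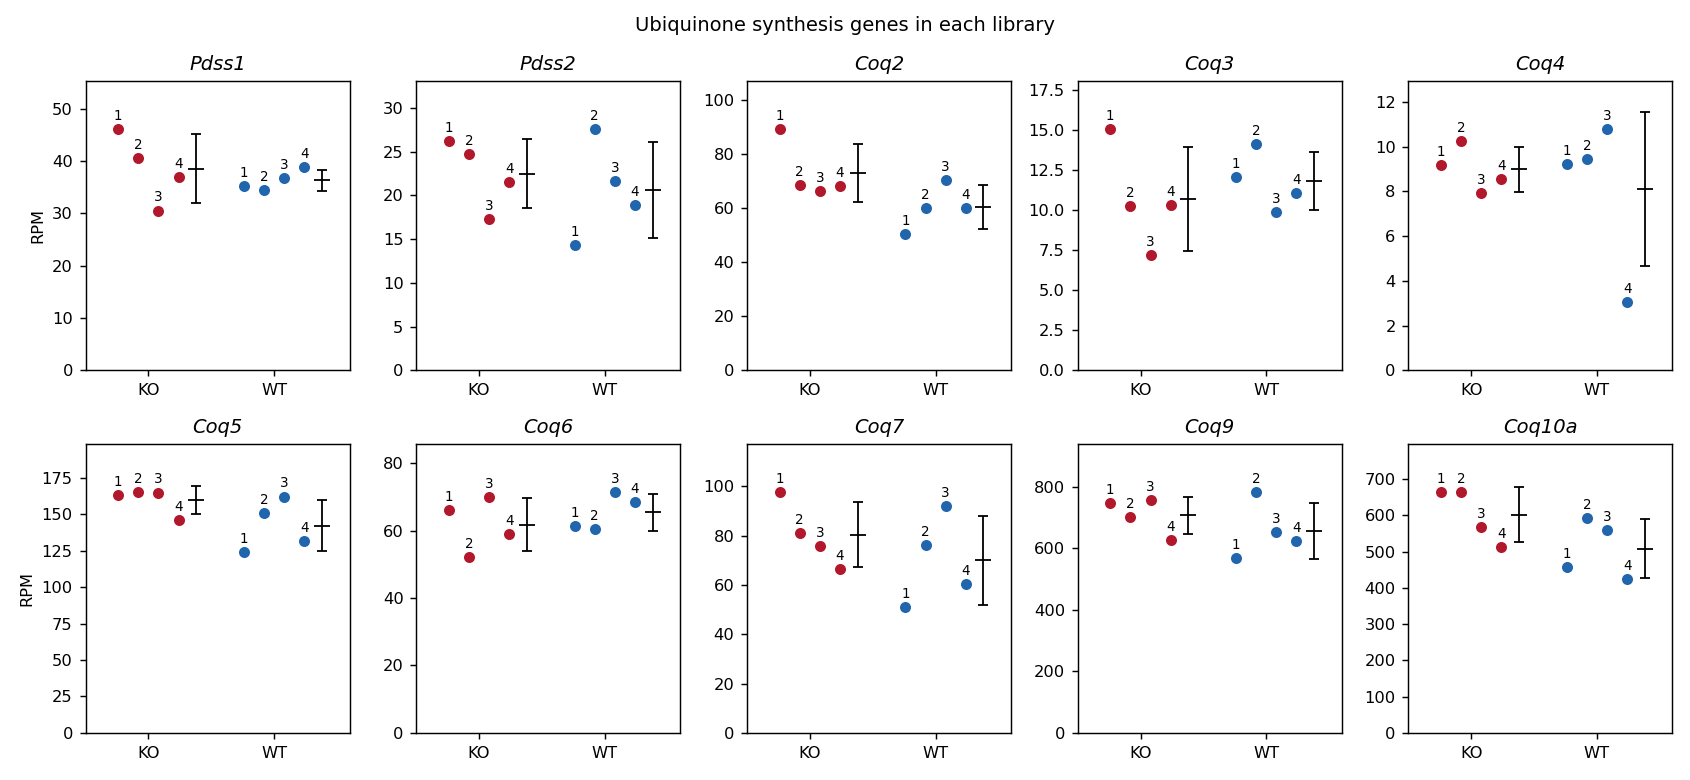
Level of each ubiquinone synthesis gene in RPM (vertical axis, from 0) in the 4 KO libraries (red, left) and the 4 WT libraries (blue, right), with replicate numbers beside the points and the mean with 1 SD as a black bar. In all 10 panels the groups overlap, and WT1 holds the lowest point of 5 panels.

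The tail of ubiquinone is made by the polyprenyl diphosphate synthase, a complex of Pdss1 and Pdss2. Pdss1 (chromosome 2, 22895522 to 22940266, plus strand), the catalytic subunit, stood at 46.1, 40.6, 30.6 and 37.0 RPM in KO1 to KO4, against 35.2, 34.4, 36.7 and 39.0 RPM in WT1 to WT4. The KO libraries spread to both sides of the narrow WT range, with a coefficient of variation of 16.9% in KO and 5.53% in WT. The log2 fold change was 0.07, with a 95% interval from -0.23 to 0.38. Pdss2 (chromosome 10, 43221486 to 43464882, plus strand), its partner subunit, stood at 26.2, 24.8, 17.3 and 21.5 RPM in KO1 to KO4, against 14.4, 27.6, 21.7 and 18.9 RPM in WT1 to WT4. Here the WT libraries spread the more, with the lowest and the highest of all 8 values. The log2 fold change of Pdss2 was 0.14 (interval -0.28 to 0.56).

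Coq2 (chromosome 5, 100654723 to 100675140, minus strand) encodes the membrane transferase that joins the tail to the ring. It stood at 89.2, 68.8, 66.2 and 68.3 RPM in KO1 to KO4, against 50.6, 60.0, 70.5 and 60.1 RPM in WT1 to WT4. KO1 lay far above the other KO libraries, and WT3 lay above 3 of the KO libraries. With libraries scaled by median ratios, WT3 lay below every KO library. The means were 73.1 ± 10.8 RPM in KO and 60.3 ± 8.16 RPM in WT (SD, n = 4 each). This gave the highest log2 fold change of the 10 genes, 0.27 (SE 0.14, interval -0.03 to 0.58), and the smallest unadjusted p (0.0741 by limma). Without WT1 and WT4 it was 0.16.

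The methyltransferases of the ring, Coq3 and Coq5, differed in sign. Coq3 (chromosome 4, 21879673 to 21912162, plus strand), which methylates the ring oxygens, stood at 15.0, 10.3, 7.18 and 10.3 RPM in KO1 to KO4, against 12.1, 14.1, 9.85 and 11.1 RPM in WT1 to WT4. KO held both the highest and the lowest value, and the log2 fold change was -0.16 (interval -0.59 to 0.27). Coq5 (chromosome 5, 115279666 to 115296972, plus strand), which methylates a ring carbon, stood at 163, 165, 165 and 146 RPM in KO1 to KO4, against 124, 151, 162 and 132 RPM in WT1 to WT4. Of the 4 KO libraries, 3 lay within 2 RPM of each other and above every WT library, while KO4 lay below WT2 and WT3. With libraries scaled by median ratios, KO4 lay above WT2 and WT3. The means of Coq5 were 160 ± 9.42 RPM in KO and 142 ± 17.3 RPM in WT (SD, n = 4 each). Its log2 fold change was 0.17 (interval -0.09 to 0.43). Without WT1 and WT4, its lowest WT libraries, it was 0.03.

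The hydroxylases of the ring are Coq6, a flavin monooxygenase, and Coq7, a diiron enzyme of the step before the last methylation. Coq6 (chromosome 12, 84361657 to 84373796, plus strand) stood at 66.0, 52.0, 70.1 and 59.0 RPM in KO1 to KO4, against 61.3, 60.4, 71.5 and 68.3 RPM in WT1 to WT4. It was the other gene below 0, with a log2 fold change of -0.09 (interval -0.36 to 0.19). Coq6 was the gene least like the rest, with Pearson r from -0.33 to 0.16 against the other 9. Coq7 (chromosome 7, 118509659 to 118533356, minus strand) stood at 97.8, 81.3, 76.0 and 66.3 RPM in KO1 to KO4, against 51.1, 76.4, 92.1 and 60.3 RPM in WT1 to WT4. Its log2 fold change was 0.22 (interval -0.17 to 0.61), and -0.08 without WT1 and WT4, its lowest libraries of the 8.

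Coq4 and Coq9 hold the complex together rather than carrying a flavin or methyl donor. Coq9 (chromosome 8, 94838321 to 94854895, plus strand), a lipid-binding protein that presents the ring to Coq7, stood at 746, 702, 755 and 625 RPM in KO1 to KO4, against 569, 783, 653 and 625 RPM in WT1 to WT4. Both the highest and the lowest value were in WT, and the log2 fold change was 0.11 (interval -0.16 to 0.39). Coq4 (chromosome 2, 29787493 to 29797935, plus strand), an organiser of the complex that has also been given a role in ring decarboxylation in human cells, stood at 9.19, 10.3, 7.92 and 8.56 RPM in KO1 to KO4, against 9.21, 9.43, 10.8 and 3.05 RPM in WT1 to WT4. WT4 lay well below the other 7 libraries. It rested on 25 reads, with an exact 95% Poisson interval from 1.97 to 4.50 RPM that covers counting error only, and in the other libraries Coq4 had 55 to 84 reads. The log2 fold change of Coq4 was 0.24 (interval -0.37 to 0.85) with WT4 and -0.12 without it.

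Coq10a (chromosome 10, 128363100 to 128368997, minus strand) encodes a lipid-binding chaperone; its counterpart in yeast is needed for ubiquinone to work in respiration. It stood at 665, 664, 567 and 512 RPM in KO1 to KO4, against 458, 593, 560 and 424 RPM in WT1 to WT4. KO1 and KO2 lay above every WT library and WT1 and WT4 below every KO library, while the other 4 were mixed. The means were 602 ± 75.5 RPM in KO and 509 ± 80.7 RPM in WT (SD, n = 4 each). The log2 fold change of Coq10a was 0.25 (interval -0.06 to 0.55), and 0.05 without WT1 and WT4. Its paralog Coq10b averaged 93.1 ± 17.1 RPM in KO and 82.0 ± 18.3 RPM in WT (SD, n = 4 each). The log2 ratio of the Coq10a to the Coq10b amplicon, taken on RPM + 1, was 2.62, 3.01, 2.38 and 2.75 in KO1 to KO4, against 2.15, 3.08, 2.59 and 2.71 in WT1 to WT4. It differed by 0.06 between KO and WT, less than the spread within either group (exact two-sided permutation test, p = 0.83). The sources used here do not say how reads shared by these paralogs would be counted.

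The intervals give the size of change that these libraries leave room for. In the main limma fit on log2(RPM + 1), all 10 intervals lay within a 2-fold change in either direction, and 7 of 10 lay within 1.5-fold. The exceptions were Coq3, Coq4 and Coq7. Coq4 had the widest interval, reaching to 1.80-fold higher, and Coq3 the lowest bound, at 0.664 of the WT level. In some other settings the upper bound of Coq4 passed 2-fold, with a log2 value of 1.06 after quantile scaling and 1.04 without WT3. The genes were counted with 25 to 6103 reads per library. Counting error alone corresponded to a coefficient of variation of 1.39% for Coq9 and 13.2% for Coq4, where the spread between KO libraries was 8.37% for Coq9 and 11.1% for Coq4. Coq4 in KO thus varied by no more than its counting error, and its level is the least precise of the 10.

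**Figure D2:**
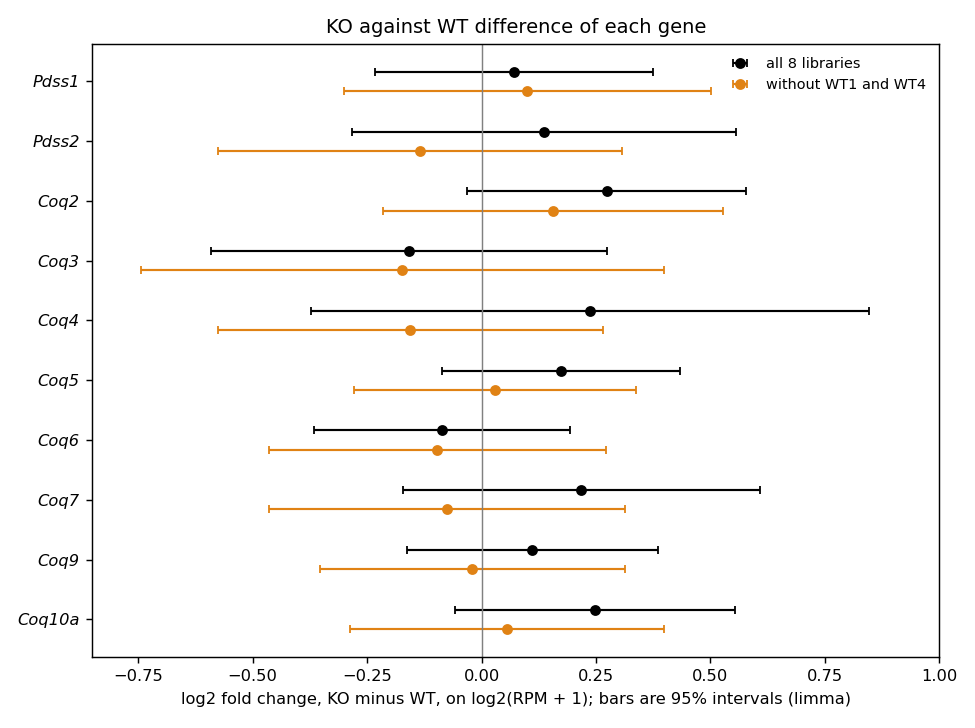
Log2 fold change of each gene, KO minus WT, on log2(RPM + 1) (horizontal axis) with 95% intervals from limma, for all 8 libraries (black, upper of each pair) and without WT1 and WT4 (orange, lower of each pair). All intervals include 0, and 4 of 10 values lie above 0 without WT1 and WT4, against 8 of 10 with them.

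In the RPM values the direction of the whole group rested on WT1 and WT4. The fit without them was run on RPM values only, and averages on another scale are given below. In 7 of 10 genes the lowest WT library was WT1 or WT4, and in 6 of 10 both lay below both WT2 and WT3. Without these 2 libraries 4 of 10 genes were above 0, where 29.0% of all targets were, and the median log2 fold change was -0.05, where the median of all targets was -0.10. The genes that changed sign were Pdss2, Coq4, Coq7 and Coq9. WT1 and WT4 are the libraries with the highest summed level of the bone and osteoclast list, 3748 and 6279 RPM, though Phex, on that list, averaged 1.73 RPM in KO and 0.85 RPM in WT. The part of this material in the lower ubiquinone gene levels was not tested. Leaving out single libraries moved the median of 0.16 to 0.07 without WT1, 0.10 without KO1 and 0.24 without WT2.

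The level of the group was also lower in the deeper libraries, though not in strict order. With each gene expressed as a percentage of its mean over the 8 libraries, the average over the 10 genes was, from the shallowest to the deepest library, 119% in KO1, 106% in WT2, 106% in KO2, 106% in WT3, 95.1% in KO3, 85.9% in WT4, 95.4% in KO4 and 86.4% in WT1. The 4 libraries with fewer reads were all above 100% and the 4 with more reads all below. KO1, the highest in 5 of 10 genes, was the shallowest library, and WT1, the lowest in 5 of 10 genes, was the deepest. With the log2 of total reads as a covariate, the median of the 10 genes was 0.07, where that of all targets was -0.08. With libraries scaled by median ratios instead of total reads, the averages were 114%, 104%, 102% and 103% in KO1 to KO4, against 89.9%, 102%, 98.6% and 86.0% in WT1 to WT4. On that scale KO3 and KO4 no longer stood below 100%, and WT1 and WT4 were still the lowest. Every KO library then lay above every WT library, though by little between KO3 (102.43%) and WT2 (102.32%). This difference between the groups was not tested. The part of depth in these levels was not tested further.

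**Figure D3:**
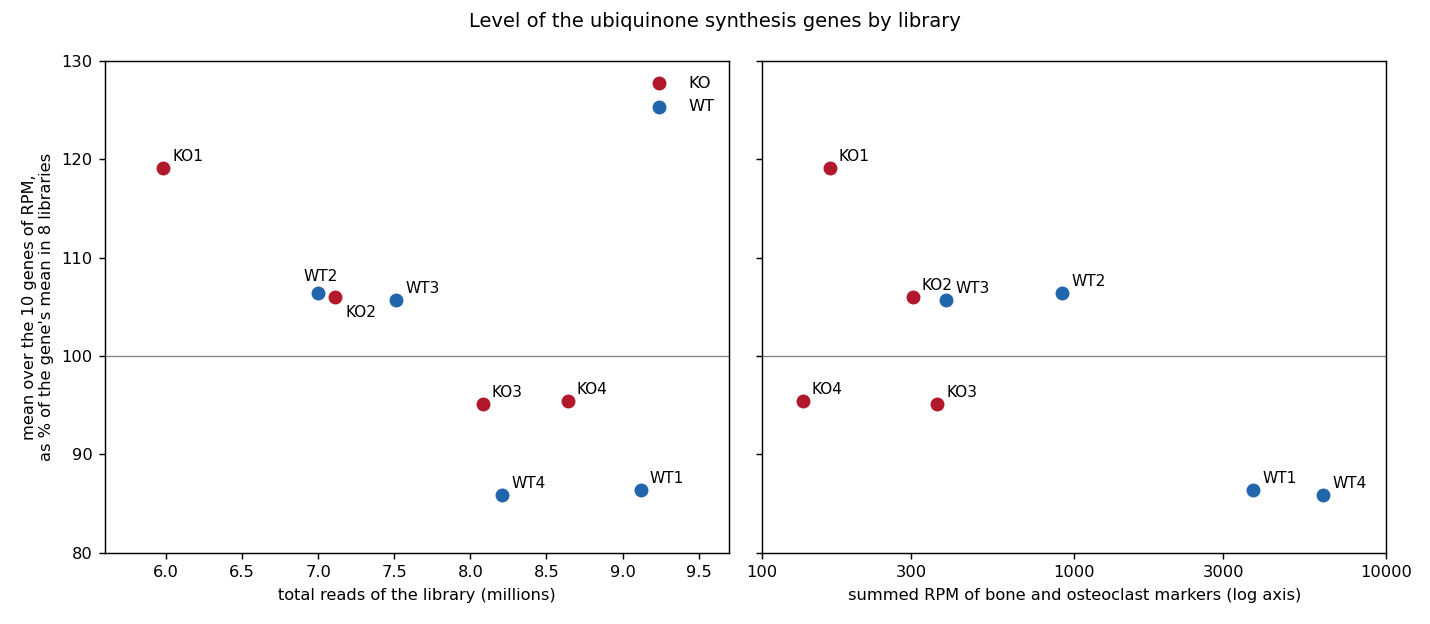
Average level of the 10 genes in each library, as a percentage of each gene's mean over 8 libraries (vertical axis), against the total reads of the library (left) and against the summed RPM of bone and osteoclast markers on a log axis (right), with KO in red and WT in blue. The shallowest library, KO1, is at 119% and the deepest, WT1, at 86.4%, and WT1 and WT4 lie far to the right of the other 6 libraries in bone markers, at 3748 and 6279 RPM.

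Scaling changed how close the higher genes came to the threshold. On the whole reads recovered from the RPM values, edgeR's quasi-likelihood test gave 3 of 10 genes an unadjusted p under 0.05, all higher in KO (2.73% of all targets were), and so did DESeq2 (2.85% of all targets), and limma after TMM or median-ratio scaling (2.93% and 3.15%). After quantile scaling 1 of 10 was below it, Coq2 (3.82% of all targets). The 3 genes in edgeR, DESeq2, TMM and median-ratio scaling were Coq2, Coq5 and Coq10a. After BH adjustment 0 of 10 passed in edgeR (0.00909% of all targets passed) and 0 of 10 in DESeq2 (1.35%). Coq2 had an adjusted p of 0.342 in edgeR and 0.236 in DESeq2, the smallest over all alternatives run. Over all targets the share of higher genes among those with an unadjusted p under 0.05 also moved with the scaling, with 73 of 1015 higher in the RPM values and 347 of 1106 after median-ratio scaling.

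A set of 6 genes varied together over the libraries. For Pdss2, Coq2, Coq5, Coq7, Coq9 and Coq10a, grouped after their values were seen, the 15 pairwise Pearson r on log2(RPM + 1) ran from 0.51 to 0.91, with the highest between Coq5 and Coq7. Over all 45 pairs of the 10 genes r ran from -0.33 to 0.91, with a median of 0.38. The libraries share the scaling to total reads and include WT1 and WT4, and these r are descriptions only.

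Other genes that act on ubiquinone or its makers were taken from a list of 17 symbols, of which 13 were in the table and 9 were tested. None passed, with 0 of 9 called by limma, edgeR or DESeq2 (0.0273%, 0.00909% and 1.35% of all targets), 1 at an unadjusted p under 0.05 by limma and 0 by edgeR and DESeq2 (9.22%, 10.1% and 9.38% of all targets). The 1 of 9 by limma is close to the share of all targets. Of the 9, 5 had a log2 fold change above 0, and 2 without WT1 and WT4. Adck3, the older symbol of Coq8a, is an atypical kinase of the synthesis complex. It stood at 919, 1043, 877 and 723 RPM in KO1 to KO4, against 592, 1043, 777 and 704 RPM in WT1 to WT4, with the widest spread in WT and a log2 fold change of 0.21 (interval -0.16 to 0.58). Adck4, the older symbol of its paralog Coq8b, averaged 6.19 ± 1.04 RPM in KO and 6.38 ± 1.28 RPM in WT (SD, n = 4 each). Pptc7, a mitochondrial phosphatase, averaged 841 ± 105 RPM in KO and 775 ± 165 RPM in WT (SD, n = 4 each).

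Adck2, a further gene of the same kinase family, was the gene with the unadjusted p under 0.05 (0.0311 by limma, adjusted p = 0.439 with BH). It stood at 5.01, 5.34, 4.46 and 6.95 RPM in KO1 to KO4, against 6.80, 7.71, 7.05 and 8.28 RPM in WT1 to WT4. Only KO4 reached into the WT range, and the log2 fold change was -0.40 (interval -0.77 to -0.04). It rested on 30 to 68 reads per library. Stard7, a lipid transfer protein that moves ubiquinone out of mitochondria in human cells, averaged 290 ± 27.3 RPM in KO and 257 ± 37.7 RPM in WT (SD, n = 4 each).

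Fdx1, a mitochondrial ferredoxin, averaged 69.7 ± 12.0 RPM in KO and 72.1 ± 10.7 RPM in WT (SD, n = 4 each). Aifm2, which reduces ubiquinone outside mitochondria, averaged 9.34 ± 2.40 RPM in KO and 10.1 ± 1.45 RPM in WT, and Nqo1, a cytosolic quinone reductase, 11.5 ± 2.51 RPM in KO and 11.2 ± 1.37 RPM in WT (SD, n = 4 each). These differences were smaller than the spread within the groups. The tyrosine-degrading enzymes of liver, Tat and Hpd, were under the filter on low values.

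The supply of isoprenoid units and the enzymes around the ubiquinone pool were described in the same way. Of 12 tested mevalonate and isoprenoid genes, 0 were called by limma, edgeR or DESeq2 (0.0273%, 0.00909% and 1.35% of all targets). In any of these 0 had an unadjusted p under 0.05 (9.22%, 10.1% and 9.38% of all targets). A log2 fold change above 0 was found for 3 (median -0.15), where 40.8% of all targets were above 0. Without WT1 and WT4 it was also found for 3 (median -0.15), where 29.0% of all targets were above 0. Among the genes of this list with the smallest p were Pmvk, phosphomevalonate kinase, at 12.7 ± 1.58 RPM in KO and 15.6 ± 3.53 RPM in WT, and Dhdds, a subunit of the enzyme that makes dolichol tails, at 7.75 ± 1.05 RPM in KO and 9.15 ± 0.836 RPM in WT (SD, n = 4 each). Their adjusted p by limma with BH adjustment were 0.765 for Pmvk and 0.779 for Dhdds.

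Of 10 tested ubiquinone-reducing dehydrogenases and their electron donors, 1 was called by limma, edgeR and DESeq2, Sdhc itself (0.0273%, 0.00909% and 1.35% of all targets were called). An unadjusted p under 0.05 was reached by 1 in limma and by 2 in edgeR and in DESeq2 (9.22%, 10.1% and 9.38% of all targets). With all libraries 8 of 10 were above 0, with a median of 0.12, where 40.8% of all targets were. Without WT1 and WT4, 5 of 10 were above 0, with a median of 0.00, where 29.0% of all targets were. The other subunits of complex II averaged 1339 ± 160 RPM in KO and 1196 ± 196 RPM in WT for Sdha, 835 ± 70.8 RPM in KO and 777 ± 149 RPM in WT for Sdhb, and 869 ± 94.7 RPM in KO and 845 ± 125 RPM in WT for Sdhd (SD, n = 4 each). As with 4 of the synthesis genes, the log2 fold changes of these 3 were above 0 with all libraries (0.17, 0.12 and 0.05) and below 0 without WT1 and WT4 (-0.01, -0.05 and -0.11).

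Of 15 genes of complex III, which oxidises ubiquinol, 0 were called by limma, edgeR or DESeq2 (0.0273%, 0.00909% and 1.35% of all targets). By limma 0 had an unadjusted p under 0.05, and 1 had by edgeR and by DESeq2 (9.22%, 10.1% and 9.38% of all targets). Of the 15, 7 were above 0, with a median of 0.00, where 40.8% of all targets were. Without WT1 and WT4, 4 of 15 were above 0, with a median of -0.06, where 29.0% of all targets were. Uqcrc1, a core subunit, averaged 1889 ± 101 RPM in KO and 2193 ± 194 RPM in WT (SD, n = 4 each), and the small subunit Uqcr10 1157 ± 79.2 RPM in KO and 1323 ± 90.2 RPM in WT. Uqcc1, an assembly factor, averaged 221 ± 25.2 RPM in KO and 194 ± 16.5 RPM in WT (SD, n = 4 each). Their adjusted p by limma ran from 0.650 to 0.734.

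**Figure D4:**
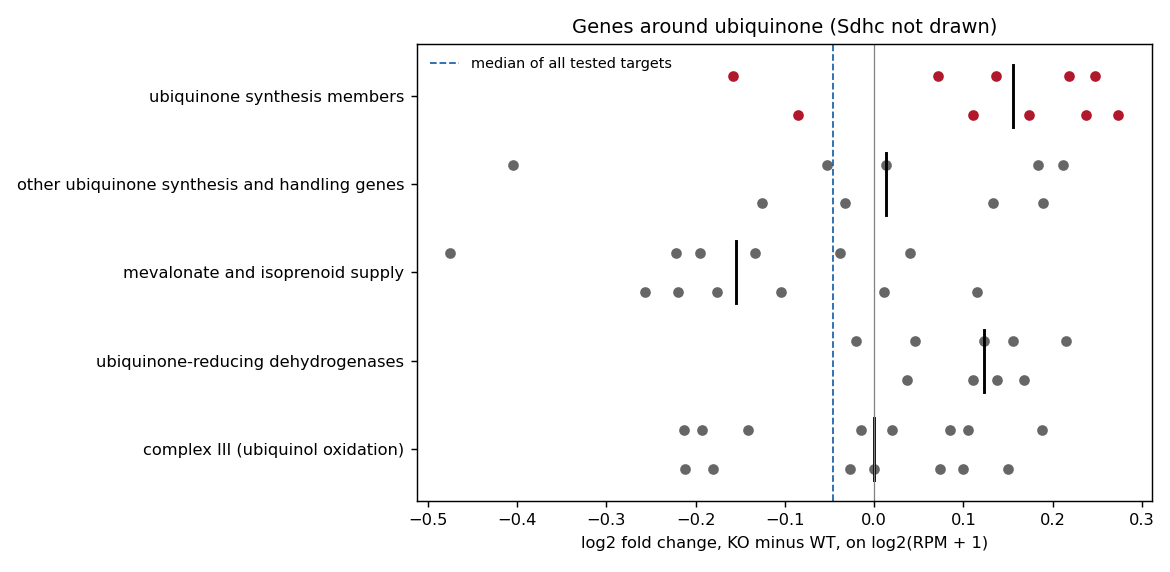
Log2 fold change, KO minus WT, on log2(RPM + 1) (horizontal axis) of each tested gene of the ubiquinone synthesis group (red) and of 4 surrounding lists (grey), with list medians as black bars and the median of all tested targets, -0.05, as a dashed line. Sdhc is not drawn, and its list's median is drawn without it. The synthesis genes run from -0.16 to 0.27 and overlap with every other list.

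Slow fibre markers were also examined, since slow fibres hold more mitochondria than fast ones. Over the 6 tested of 8 listed markers, the summed level was 223, 500, 300 and 864 RPM in KO1 to KO4, against 180, 293, 181 and 319 RPM in WT1 to WT4. All 6 had a log2 fold change above 0 (median 1.11), 0 were called by limma, edgeR or DESeq2, and 3, 5 and 4 had an unadjusted p under 0.05 in these tools (9.22%, 10.1% and 9.38% of all targets). Counting only targets higher in KO, those shares were 0.663%, 2.73% and 2.85%. Without WT1 and WT4 the median was 1.25. The average over the 10 ubiquinone genes in the same KO libraries was 119%, 106%, 95.1% and 95.4% in KO1 to KO4. KO1 is also the shallowest and KO4 the deepest of the KO libraries, and the part of fibre type in the ubiquinone gene levels was not tested.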

How the data were processed

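The authors deposited one table of RPM values, the reads of each target scaled to a library total of 1000000, and per the file headers its columns carry the barcode numbers that the labels give for each sample. Transcriptome Analysis Console is named in the submitters' processing notes, and the sources used here give no aligner, genome build or counting rule. RPM values were whole multiples of the value of a single read (100% within 0.1 of a whole read), so reads were recovered for edgeR 4.0.16 and DESeq2 1.42.0. The groups were compared in limma 3.58.1 (R 4.3.3, two-sided) on log2(RPM + 1), with an intensity trend, over the 11004 targets that averaged 1 RPM or more, with BH adjustment over all of them. The added 1 RPM makes fold changes of low genes too small. The procedure was tested on simulated reads, with changes larger than those of the members and no difference in cell content between libraries. That test therefore does not show how well changes as small as those of the members would be found. Single values used exact permutation tests.

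The members and lists were chosen with earlier results of these data known. Named genes were all members, Sdhc to Sdhd, all tested genes of the list of other ubiquinone genes, the genes past the threshold or else the 3 with the smallest p of the other lists, the most abundant marker of each cell type, Col1a1 and Acp5, and the 3 targets most like the mean profile of the members. Not every marker so picked is printed. A gene that this rule names in the isoprenoid list is not reported here. Etfdh was named after its values were seen. In GENCODE vM21, exons of Pdss1, Pdss2, Coq4, Coq6 and Coq9 overlap those of other genes, and neither the amplicon positions nor the use of strand is stated in these sources. The labels speak of mice but number only the samples, so p-values measure the spread between these samples.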

Additional observations from a re-analysis of the deposited data

Results flagged for a closer look

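Of the 10 genes, 2 had a library far from the other 3 of its group in the RPM values, the only scale examined. Coq2 stood at 89.2 RPM in KO1, against 66.2 to 68.8 RPM in the other KO libraries. Coq5 stood at 146 RPM in KO4, against 163 to 165 RPM in the other KO libraries. With libraries scaled by median ratios, KO4 was no longer the lowest KO library of Coq5. Etfdh, the dehydrogenase that passes electrons from fatty acid oxidation to ubiquinone, had such a library in both groups. It stood at 8.16 RPM in KO2, against 45.2 to 51.5 RPM in the other KO libraries, and at 8.92 RPM in WT3, against 44.2 to 51.1 RPM in the other WT libraries. These were 4 of the 66 groups of 4 libraries examined over 33 genes, and chance alone flags about 1 in 20 groups. The low Coq4 value of WT4, 3.05 RPM against 9.21 to 10.8 RPM in the other WT libraries, did not pass this rule.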

How the results depend on the processing

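The members called stayed at 0 under every alternative run, of 10 members tested in each except the filter at a mean of 10 RPM, which left out Coq4 and tested 9. Other settings gave 3 members at an unadjusted p under 0.05 (edgeR, DESeq2, TMM and median-ratio scaling) or 1 (quantile scaling), and 0 to 1 when single libraries were left out, against 0. Without WT1 and WT4 the members above 0 were 4 and the median log2 fold change was -0.048, and Pdss2 (-0.13), Coq4 (-0.16), Coq7 (-0.076), Coq9 (-0.020), Sdha (-0.0064), Sdhb (-0.049), Sdhd (-0.11), Adck3 (-0.028), Pptc7 (-0.023) and Nqo1 (-0.049) turned negative. The log2 ratio of Coq10a to Coq10b differed by -0.14 without them and by -0.10 to 0.21 without single libraries. Leave-one-out ranges that crossed 0 were -0.018 to 0.18 for Pdss1, -0.015 to 0.28 for Pdss2, -0.12 to 0.40 for Coq4, -0.024 to 0.21 for Sdhb, -0.017 to 0.14 for Sdhd, -0.13 to 0.060 for Adck4, -0.15 to 0.021 for Fdx1 and -0.11 to 0.11 for Nqo1. Adck4 was 0.013 under median-ratio, 0.0088 under TMM and 0.089 under quantile scaling, and Fdx1 0.0018 under median-ratio scaling and 0.00063 in DESeq2. With the depth covariate Sdhd was -0.021 and Nqo1 -0.061. With scaling to fast fibre markers, which moved the median of all targets to -0.12, Pdss1 was -0.0068, Sdhd -0.032 and Nqo1 -0.065. These last 2 settings were chosen after seeing the data. The cause of each change was not tested.

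Targets called, 3 in all, were 6 with no filter or with the depth covariate, 149 in DESeq2, 188 with scaling to fast fibre markers, 1 to 130 without single libraries (130 without WT3, 10 without KO1), and 1 under median-ratio, TMM or quantile scaling, with no intensity trend, in edgeR, and without WT1 and WT4. The replicate numbers were not taken as pairs: deviations of same-numbered libraries had r of 0.00337, 0.257, 0.125 and 0.105 for numbers 1 to 4, so number 1 was not over 0.1, and differently numbered libraries reached 0.279 (KO3 with WT1) and 0.225 (KO1 with WT3). The replicate block left 1 target called and 0 members. For Sdhc the exact test on the RPM difference of -762 gave p = 0.125 with the replicate block and, at -817, p = 0.0667 without WT1 and WT4, the smallest these designs allow. Depth limits Coq4 most, at 25 to 84 reads.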

Other observations

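Among 6687 other targets that averaged 10 RPM or more, the 3 whose levels over the 8 libraries were most like the mean standardised profile of the 10 ubiquinone genes were Aamdc (Pearson r = 0.99), Rab22a (0.98) and Gphn (0.98), with no test, since they were the highest of many. Aamdc stood at 112, 97.0, 82.9 and 79.6 RPM in KO1 to KO4, against 65.7, 94.4, 100.2 and 72.9 RPM in WT1 to WT4. It was highest in KO1 and lowest in WT1, and since it was picked for its likeness to the profile, this order is a description. Gphn, the gene of gephyrin, an anchor of inhibitory synapses that also takes part in making the molybdenum cofactor, stood at 25.2, 20.0, 16.3 and 17.4 RPM in KO1 to KO4, against 14.4, 20.3, 20.9 and 15.6 RPM in WT1 to WT4.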
